A study of Mus musculus with 8 samples.

Results

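Tal1, Lyl1, Lmo2, Ldb1, Gata1, Gata2, Gata3, Fli1, Erg and Spi1 encode a network of transcription factors and adaptors that act together in early blood and endothelial cells. These 10 genes were taken as a named list, and their probes were found through the RefSeq accession printed for each probe. All 10 were among the 14504 genes tested, and they were read by 11 of the 55681 probes on the array. Erg had 2 probes and each other gene had 1. Every sample came from mouse cells of strain C57BL/6 in which doxycycline switches on an added Runx1 gene through Tet-on (iRUNX1). They were differentiated from embryonic stem cells as embryoid bodies for 3.25 days, sorted more than once for Flk-1, and cultured for 2 days to hemogenic endothelium, the vessel-lining cells that give rise to blood. The induced group (3 replicates) received doxycycline overnight at 0.3 µl/ml, the unit given in the labels, and the uninduced group (3 replicates) carried the same inducible gene without doxycycline. There was also 1 technical repeat array per group, kept apart from the test. The labels do not say whether the line was 1 clone, nor from which replicate the repeats came. Cells that lack the inducible gene but received doxycycline were not analysed here.

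TAL1 and LYL1 are related basic helix-loop-helix factors. They bind E-box sequences with E-protein partners, and LMO2 and LDB1 bridge them to GATA factors in a shared complex. FLI1, ERG and SPI1 (PU.1) are ETS family factors: FLI1 and ERG are active in endothelium, blood stem cells and megakaryocytes, and SPI1 drives myeloid and B cell genes. GATA2 is active in progenitors, GATA1 in red cells, megakaryocytes and mast cells, and GATA3 in T cells and several non-blood tissues. GATA1 and SPI1 are known to oppose each other.

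Sequence upstream of Lyl1 and Erg is shown as an example. Both are among the 5 genes that were lower in induced cells in every replicate number. Of the others, Lmo2 and Fli1 had no promoter window, and Gata3 had a window that is not shown. The promoter windows are RefSeq sequences on GRCm38.p6, 250 bases before to 50 bases after an annotated start, and 7 of the 10 genes had 13 windows. Capitals mark matches on either strand to GATAA (GATA factors), CANNTG (the E-box) or GGAAG (ETS factors), and the bases are 5′ to 3′ on the gene's strand, all before the start. For Lyl1 the stretch is chr8:84701207-84701416 on the + strand, and for Erg it is chr16:95459379-95459573 on the - strand, before 1 of its 3 annotated starts.
Lyl1: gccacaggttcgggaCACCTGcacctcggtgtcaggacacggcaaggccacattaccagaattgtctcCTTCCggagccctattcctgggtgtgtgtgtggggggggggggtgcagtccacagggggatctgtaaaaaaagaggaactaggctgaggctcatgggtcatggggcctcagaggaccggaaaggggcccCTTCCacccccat
Erg: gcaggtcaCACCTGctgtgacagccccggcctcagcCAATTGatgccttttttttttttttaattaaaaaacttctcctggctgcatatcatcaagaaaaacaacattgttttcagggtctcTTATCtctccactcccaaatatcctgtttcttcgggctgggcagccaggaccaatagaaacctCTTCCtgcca

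The Lyl1 stretch held 1 E-box match and 2 ETS matches, and the Erg stretch held 2 E-box matches, 1 GATA match and 1 ETS match. Among the windows of Erg, only the window shown held a GATA or an E-box match. Among all 32851 windows, GATAA was found in 25.4%, CANNTG in 72.3% and GGAAG in 71.4%, against 3, 7 and 7 of the 13 windows of the network genes. TGTGGT, the core that RUNX factors bind, was found in 0 of the 13 windows and in 16.8% of all windows. These matches describe the letters in the windows only.

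Levels below are on a log2 scale, with 0 set at the 75th percentile of the processed signal of the array, which was 543 to 973 on the induced arrays and 338 to 699 on the uninduced ones. All 8 arrays lay on 1 slide in 1 scan, and 55.6% to 70.4% of spots were well above background. The authors' separate table of log2 values goes against the arrays' labels: 4 of its 8 columns matched a scanner array of the other group best, and 2 matched their own. The results below rest on the scanner files as labelled. Runx1 does not check the groups, since no source used here states whether its probes cover the inducible construct. The brighter Runx1 probe averaged -5.60 ± 0.60 in induced and -4.57 ± 0.25 in uninduced cells (SD, n = 3 each; difference -1.03, adjusted p 0.126 in limma and 0.0214 with the block, a fall). It was well above background on 2 induced and 3 uninduced arrays, and the other one was well above background on 0 of the 6 arrays. Replicate 1 stood apart in both groups: Lyl1, Lmo2, Ldb1, Gata1, Gata2, Fli1 and Erg each had their lowest value of the group there. Arrays with the same replicate number deviated together, with correlations over genes of 0.65, 0.45 and 0.43, so values from the fit with the replicate number as a block are given beside those without it.

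The labelled cell type was checked against its markers. All 8 hemogenic endothelium markers, among them Cdh5, Kdr and Tek, were well above background on all 6 arrays. Their summed level, in units of the array's 75th percentile, was 54.2 to 108 in induced and 72.1 to 171 in uninduced cells, and 3 of 8 fell (Tek, Eng and Sox17). Of 6 blood cell markers 4 rose (Spn, Gfi1, Myb and Ikzf1), with a summed level of 9.15 to 22.7 in induced and 1.16 to 2.99 in uninduced cells. Myb was well above background on 2 of 3 uninduced arrays and Ikzf1 on 1 of 3, so both were kept only through the induced arrays. The other markers did not pass: Ptprc differed by -0.19 (adjusted p 0.562 in limma) and Itga2b by 0.63 (adjusted p 0.666). Among all genes tested, 4.14% rose and 2.16% fell without the block. The 8 mesenchymal and smooth muscle markers summed to 569 to 666 in induced and 761 to 891 in uninduced cells, the lowest array of which was above the highest induced one. Of these 8, 1 fell without the block (Thy1), and 1 of 5 cardiac markers did (Tnnc1). With the replicate block more markers fell. They were 4 of 8 for hemogenic endothelium, 3 of 8 mesenchymal ones (Acta2, Thy1 and Postn) and 3 of 5 cardiac ones (Tnnt2, Tnnc1 and Actc1). In that fit 4 of 6 blood cell markers rose, and of all genes 9.37% rose and 6.81% fell. Each summed level mostly follows its brightest markers and is not an average over the list. These were Kdr and Cdh5 for hemogenic endothelium, Gfi1 for blood cells, and Acta2 and Tagln for the mesenchymal list. The part of the cell type markers in the differences below was not tested. In bulk RNA, fewer cells of a type and less RNA per cell cannot be told apart.

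Without the block, 0 of the 10 genes passed the threshold of adjusted p under 0.05 in limma, where 6.31% of all 14504 genes did (4.14% rose and 2.16% fell). At an unadjusted p under 0.05 there were 2 of 10, Spi1 and Gata2, against 21.6% of all genes. With the replicate block, 5 of the 10 passed, against 16.2% of all genes. Gata2 and Spi1 rose (9.37% of all genes rose), Spi1 from a group in which its probe was below background, while Erg, Lyl1 and Lmo2 fell (6.81% of all genes fell). With that block, leaving out replicate 1 gave 0 that rose and 2 that fell (Erg and Lmo2), leaving out replicate 2 gave 0 and 1 (Erg), and leaving out replicate 3 gave 1 (Spi1) and 2 (Erg and Lyl1). Single arrays of replicate 1 moved the 3 genes that fell: without the block, leaving out induced replicate 1 gave -0.35 for Lyl1, -0.32 for Lmo2 and -0.97 for Erg, and leaving out uninduced replicate 1 gave -1.48, -1.44 and -2.43. The median difference of the 10 genes was -0.39, and that of all genes was 0.09.

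**Figure D1:**
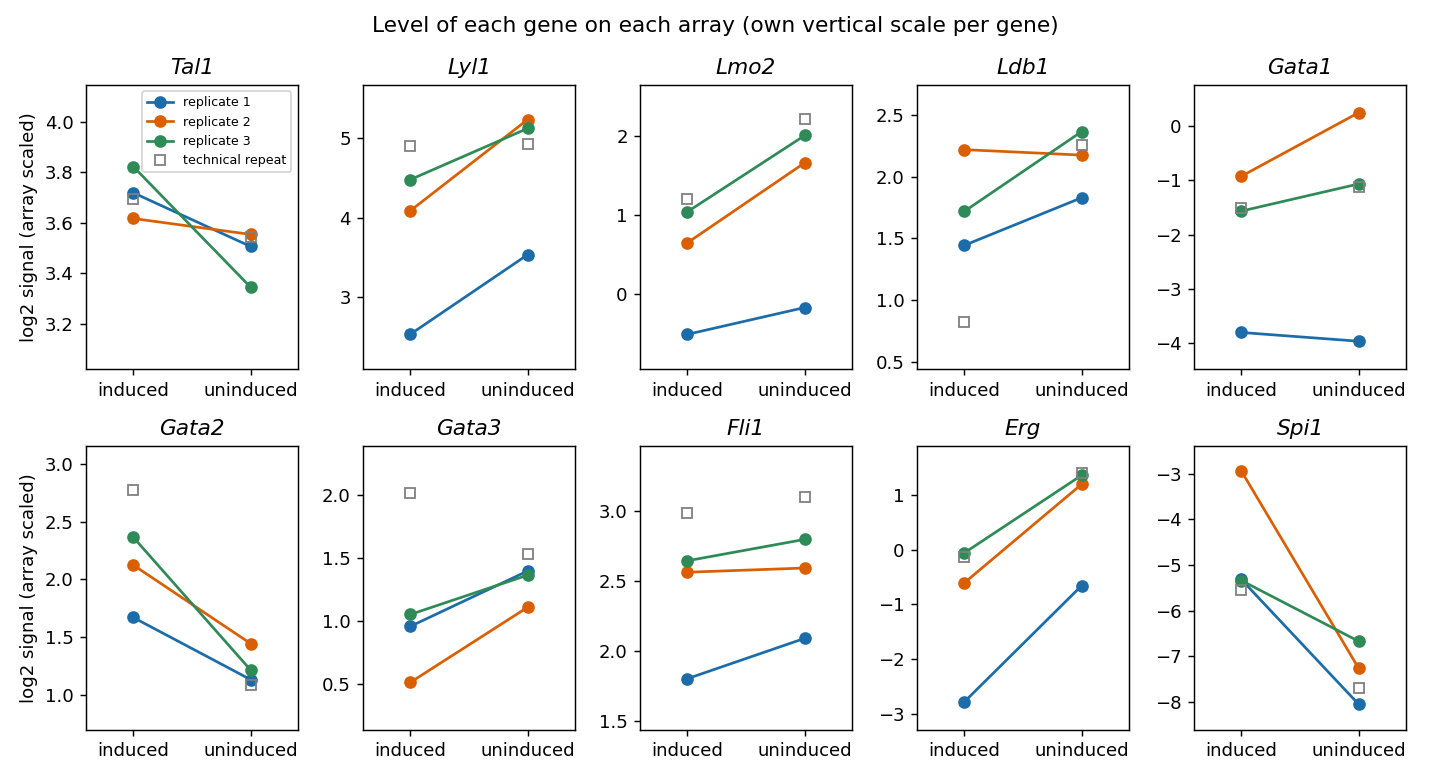
Log2 signal of each of the 10 genes on each array, relative to the array's 75th percentile, with its own vertical scale per gene. Induced arrays are on the left and uninduced arrays on the right, lines join arrays of the same replicate number, and open squares are the technical repeats. Erg, Lyl1 and Lmo2 lay lower in induced cells in all 3 numbers, and Gata2 and Spi1 higher.

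Each difference is thus measured against an array's general brightness. Against the 4 brightest E1A spike-in probes, the 75th percentile of the induced array exceeded that of the uninduced array by 1.02, 0.75 and 1.61 for numbers 1, 2 and 3, and by 0.35 for the technical repeats. Scaling to these spike-ins moved the median difference of all genes to 1.22, and median scaling moved it to 0.25. With spike-in scaling and the block 5 of the 10 genes rose (Spi1, Gata2, Tal1, Fli1 and Ldb1) and 0 fell, where 86.8% of all genes passed, 85.7% rising and 1.09% falling, so the share of the 10 that rose was below that of all genes.

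Tal1 encodes the helix-loop-helix factor that is needed for all blood formation. It read 3.72, 3.62 and 3.82 in induced replicates 1, 2 and 3, against 3.51, 3.55 and 3.34 in uninduced ones. The groups did not overlap, as was so for 28.3% of all genes, and the difference was small. Its size was 0.25 (SE 0.14; adjusted p in limma 0.351, or 0.250 with the block), and its 95% interval ran from -0.09 to 0.59.

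Lyl1, the relative of Tal1, read 2.53, 4.08 and 4.48 in induced cells, against 3.53, 5.23 and 5.12 in uninduced cells. The groups overlapped through uninduced replicate 1, which was below induced replicates 2 and 3, and each induced array was below the uninduced array of its number. The difference was -0.93 (SE 0.64, adjusted p 0.430 in limma without the block). With the block Lyl1 fell by 0.93 (SE 0.15, adjusted p 0.0168), but the difference was 0.20 with spike-in scaling. The technical repeat arrays read 4.90 induced and 4.93 uninduced, a difference of -0.03.

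Lmo2 encodes the LIM-only adaptor of the complex. Its levels were -0.50, 0.65 and 1.04 in induced cells, against -0.17, 1.66 and 2.00 in uninduced cells. The groups overlapped, and the 3 differences within a number were all below 0. The difference was -0.77 (SE 0.65, adjusted p 0.512 without the block; SE 0.18, adjusted p 0.0451 with it), -0.35 without uninduced replicate 3, and 0.36 with spike-in scaling. The technical repeats differed by -1.004.

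Ldb1, which dimerises and joins such complexes over distance, read 1.44, 2.22 and 1.72 in induced and 1.83, 2.17 and 2.36 in uninduced cells. The groups overlapped, and number 2 was slightly higher when induced. The difference of -0.33 (SE 0.25) had an adjusted p of 0.469 in limma and of 0.231 with the block. Its 95% interval was -0.76 to 0.10 with the block. The technical repeats differed by -1.43, more than any of the 3 replicate numbers.

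Gata1 encodes the factor of red cell and megakaryocyte maturation. It read -3.81, -0.92 and -1.56 in induced cells, against -3.97, 0.25 and -1.06 in uninduced cells. Replicate 1 was far below the others in both groups. The difference was -0.50 (SE 1.19, adjusted p 0.824 in limma) with a 95% interval of -3.34 to 2.33. With the block the SE was 0.27 and the adjusted p 0.241, with an interval of -1.19 to 0.18. Leaving out induced replicate 1 turned it to 0.35 and leaving out uninduced replicate 2 to 0.42.

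Gata2, needed for blood stem and progenitor cells, read 1.67, 2.12 and 2.36 in induced cells, against 1.13, 1.44 and 1.21 in uninduced cells. Every induced array was above every uninduced one. The difference was 0.79 (SE 0.21, adjusted p 0.0903 in limma without the block), and with the block Gata2 rose by 0.79 (SE 0.16, adjusted p 0.0335). The block call was lost when any 1 replicate number was left out, with adjusted p of 0.0749 to 0.115. The technical repeats read 2.77 induced and 1.08 uninduced. Gata2 stayed above 0 in all 25 alternative settings and passed in 7 of them. Tal1 also kept its sign in all 25, and Spi1 in the 24 in which it was tested.

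Gata3 read 0.96, 0.51 and 1.05 in induced cells, against 1.399, 1.11 and 1.37 in uninduced cells. Every induced array was below every uninduced one, but the technical repeats went the other way, with 2.02 induced and 1.53 uninduced. The difference was -0.45 (SE 0.19, adjusted p 0.240 in limma) and did not pass with the block (SE 0.12, adjusted p 0.0705). With spike-in scaling it was 0.68.

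Fli1 and Erg encode closely related ETS factors of endothelium and megakaryocytes. Fli1 read 1.80, 2.56 and 2.65 in induced cells, against 2.09, 2.59 and 2.80 in uninduced cells. The groups overlapped and the difference was -0.16 (SE 0.29, adjusted p 0.774; SE 0.12, adjusted p 0.395 with the block). The interval with the block was -0.47 to 0.15, and with spike-in scaling the difference was 0.97.

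Erg differed most in the downward direction among the 10 genes, and 1.17% of all genes had a lower difference. Its brighter probe read -2.78, -0.61 and -0.06 in induced cells, against -0.66, 1.20 and 1.37 in uninduced cells. The groups overlapped only because uninduced replicate 1 was low, and the differences within numbers 1, 2 and 3 were -2.13, -1.81 and -1.42. The difference was -1.79 (SE 0.83, adjusted p 0.270 in limma without the block), and with the block Erg fell by 1.79 (SE 0.17, adjusted p 0.00440). The dimmer probe, well above background on 2 induced and 3 uninduced arrays, gave -2.02 over all kept probes (SE 0.16 and adjusted p 0.00509 with the block, against 8.83% of probes called, and SE 0.97 and adjusted p 0.346 without it, against 3.65%). The technical repeats differed by -1.52 on the brighter probe. With spike-in scaling the difference was -0.66, with an adjusted p of 0.408 without the block and of 0.0654 with it. The SE behind the first was 0.72 for each of the 10 genes, so that p does not reflect the spread of Erg itself.

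Spi1 had the highest induced minus uninduced value of the 10, from very dim signals. Its processed signal, on a linear scale, was 24.4, 77.6 and 13.4 in induced cells, against 2.62, 2.45 and 3.31 in uninduced cells. The probe was well above background on all 3 induced arrays and on none of the 3 uninduced ones, and the technical repeats, with 16.0 induced and 2.08 uninduced, showed the same split. On the log2 scale the arrays read -5.32, -2.94 and -5.34 when induced, against -8.06, -7.27 and -6.68 when uninduced. Spi1 thus entered the test only through the induced arrays, and the uninduced level is only a bound. Against the lowest signal called well above background on each uninduced array, induced cells were at least 1.83-fold higher. That bound rests on induced replicate 2, without which it was 1.05-fold. The measured means were -4.53 in induced and -7.33 in uninduced cells, with an adjusted p in limma of 0.0720 without the block and of 0.0306 with it. When probes had to be above background on each of the 6 arrays, Spi1 was not tested. With normexp background correction, whose offset shrinks differences between dim signals, the difference was 0.14 and did not pass (adjusted p 0.816, and 0.551 with the block).

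**Figure D2:**
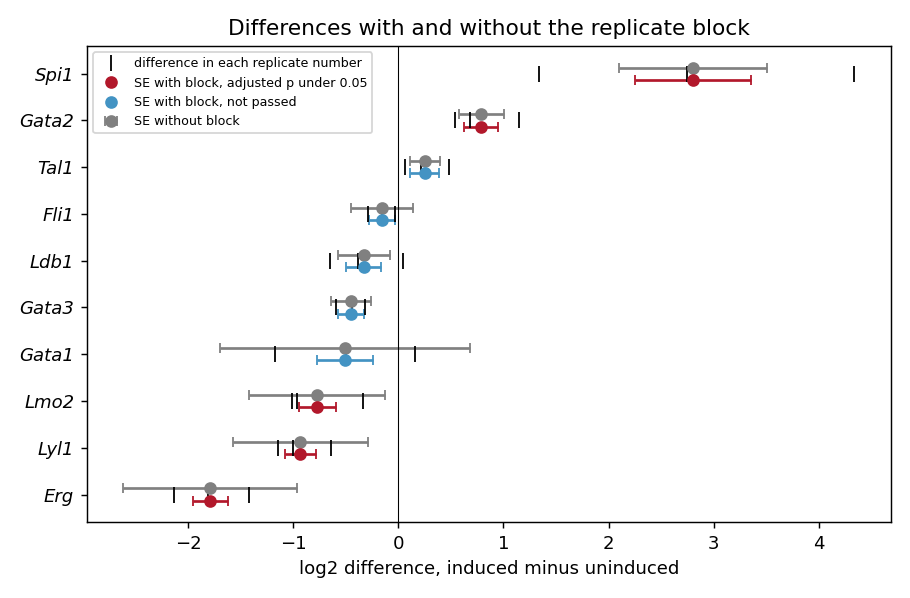
Log2 difference, induced minus uninduced, of each of the 10 genes. Points are means with SE bars without the block (grey) and with it (red where adjusted p was under 0.05, blue otherwise), and black ticks are the differences within each replicate number. The bars of Erg, Lyl1, Lmo2 and Gata1 are several times shorter with the block, while those of Tal1 and Spi1 differ little. The point of Spi1 is set against uninduced arrays that were below background.

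The differences within a replicate number had 1 sign for 8 of the 10 genes, 3 of them up (Tal1, Gata2 and Spi1) and 5 down (Lyl1, Lmo2, Gata3, Fli1 and Erg). Among all genes this held for 59.5%. Ldb1 and Gata1 had mixed signs. The groups did not overlap for 4 of 10 genes (Tal1, Gata2, Gata3 and Spi1), against 28.3% of all genes.

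Changes of one gene relative to another do not depend on how an array is scaled. The 4 pairs were compared by subtracting the log2 values of the genes on each array. Erg minus Fli1 changed by -1.84, -1.78 and -1.27 in numbers 1, 2 and 3, a mean of -1.63 ± 0.31 (SD, n = 3), so Erg was lower relative to Fli1 in all 3. Tal1 minus Lyl1 changed by 1.21, 1.21 and 1.12 (mean 1.18 ± 0.05), the narrowest spread of the 4 pairs. Spi1 minus Gata1 has only lower bounds, as uninduced Spi1 was below background: with it at the lowest signal above background, the changes were at least 0.56, 3.69 and -0.12, the last of which does not settle the direction in number 3. Gata1 minus Gata2 changed by -0.38, -1.85 and -1.65 (mean -1.29 ± 0.80). Between groups, exact two-sided permutation tests on the signals as read gave p of 0.2, 0.3, 0.1 and 0.4. All were 0.4 when adjusted over the 4 pairs, and 0.1 is the smallest p that 3 against 3 arrays allow. The tests took the arrays as unpaired, so these p do not measure the spread of the changes within a replicate number.

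**Figure D3:**
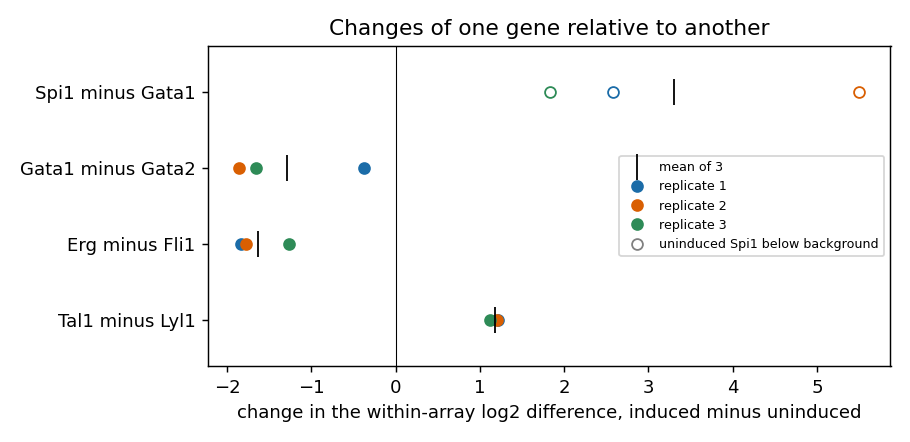
Change, induced minus uninduced, in the within-array log2 difference of 4 gene pairs. Points are replicate numbers 1 to 3 and the tick is their mean; open points use uninduced Spi1 signals below background, so their size is not measured. Tal1 minus Lyl1 lay between 1.12 and 1.21 and Erg minus Fli1 between -1.84 and -1.27.

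Partners, relatives and listed target genes were then described from 8 lists drawn up from general knowledge of the factors, not from binding data. The counts and medians of every list below stand beside those of all genes tested. Of these, 4.14% rose and 2.16% fell without the block, and 9.37% rose and 6.81% fell with it, with a median difference of 0.09. No list was tested as a set. Of 26 partners and cofactors, 2 rose and 1 fell without the block, and 2 rose and 2 fell with it, and the median was 0.04. Zfpm1 (FOG1), a cofactor of GATA1 and GATA2, averaged 5.42 ± 0.14 in induced and 4.40 ± 0.32 in uninduced cells, a rise of 1.03 (SE 0.20, adjusted p 0.0324 in limma). Lmo4, a relative of Lmo2 that also binds LDB1, rose by 0.66 (SE 0.15, adjusted p 0.0490). Zfpm2 (FOG2), a GATA cofactor best known from the heart, fell by 1.52 (SE 0.22, adjusted p 0.0121). The rises did not pass with any 1 array left out other than uninduced replicate 1, and the fall did not pass without induced or uninduced replicate 2. The E-protein gene Tcf3, whose product pairs with TAL1 and LYL1, differed by 0.27 (adjusted p 0.363), and Id2, an inhibitor of such pairs, by 0.60 (adjusted p 0.343). Both were added to the text after their values were seen. Of 4 relatives tested (Gata4, Gata5, Gata6 and the helix-loop-helix gene Nhlh1), 0 passed in limma and 1 had an unadjusted p under 0.05. Gata4 differed by 0.14 and Gata6 by -0.30, and with the block 1 relative fell, Nhlh1, at -0.67. Relatives of Spi1 were not among the genes tested.

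Of 14 red cell genes listed with GATA1 and TAL1, 1 rose and 0 fell without the block, and 1 rose and 4 fell with it (median -1.102). Of those 4, Ank1 was kept only through the uninduced arrays. Nfe2, a partner factor of red cells and megakaryocytes, averaged 2.83 ± 0.68 in induced and -0.80 ± 1.102 in uninduced cells, a rise of 3.63 (SE 0.59, adjusted p 0.0182). It did not pass without induced replicates 2 or 3 or uninduced replicate 3. The embryonic globin gene Hbb-bh1 averaged 3.34 ± 1.71 and 4.97 ± 1.97, a difference of -1.64 (adjusted p 0.449, and 0.00592 with the block), and was low in replicate 1 of both groups, as Gata1 was. Slc25a37, an iron importer of mitochondria, differed by -0.01 (adjusted p 0.985).

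Of 14 megakaryocyte genes listed with GATA1, FLI1 and TAL1, 2 rose and 0 fell without the block, and 8 rose and 1 fell with it (median 0.71). Of those 8, F2rl2 was kept only through the induced arrays. Itgb3, which encodes a chain of the platelet fibrinogen receptor, was up by 3.91 (SE 0.28, adjusted p 0.00167), and the platelet chemokine gene Pf4 rose by 2.54 (SE 0.45, adjusted p 0.0245). With 1 array left out, 1 to 2 rose, and 1 rose when any 1 induced array or uninduced replicate 3 was left out, the gene being Itgb3. With spike-in scaling 4 rose.

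Of 25 myeloid genes listed with SPI1, 6 rose and 1 fell without the block, and 15 rose and 2 fell with it. The median difference was 0.86, or 0.70 with genes below background in uninduced cells at their bound. The summed level of the list, in the units used for the markers, was not raised. It was 177 to 203 in induced and 195 to 225 in uninduced cells. The brightest genes of the list were slightly lower in induced cells and did not pass in either fit. Csf3r differed by -0.10, Itgam by -0.35, Csf2rb by -0.37 and Cyba by -0.41. Of the 25 genes, 17 were well above background on all 6 arrays. The others all rose with the block, but each was kept only through the induced arrays. The filter thus favoured a rise for them, and their direction is not a separate result. Lyz1, a lysozyme, averaged -0.89 ± 0.63 in induced and -5.47 ± 1.14 in uninduced cells, where 1 array was well above background, a rise of 4.58 (SE 0.60, adjusted p 0.00858). Lyz1 and Lyz2 are near-identical copies, so their probes could share signal. Ncf1, part of the NADPH oxidase of phagocytes, was up by 4.51 (SE 0.30), and Fcer1g, an Fc receptor chain, by 2.79 (SE 0.28). Ncf1 was well above background on 2 of 3 uninduced arrays and, like Lyz1, was kept only through the induced ones, so the size of its rise rests on dim signals. Csf1r, the receptor for macrophage colony-stimulating factor and a textbook SPI1 target, was the 1 that fell. It averaged 1.19 ± 0.40 in induced and 2.52 ± 0.22 in uninduced cells (-1.33, SE 0.24, adjusted p 0.0258). With 1 array left out it passed only when that array was induced replicate 2, and it is named after its values were seen. The rises numbered 4 to 6 with 1 array left out, 4 of them without induced replicate 2, uninduced replicate 2 or uninduced replicate 3, and they were 3 when dim probes on any of the 6 arrays were dropped and 12 with spike-in scaling.

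Of 24 endothelial genes listed with ERG and FLI1, 0 rose and 4 fell without the block, and 1 rose and 14 fell with it (median -1.21). All of the hemogenic endothelium markers above except Kit are also in this list. The falls of Sox17, Tek and Eng are thus the same as those given there. The 1 gene that rose with the block, Vwf, is also in the megakaryocyte list and counted there. Sox17, a factor of arterial and hemogenic endothelium, fell by 3.54 (SE 0.58, adjusted p 0.0182), Ecscr by 1.36 (SE 0.18), the angiopoietin receptor gene Tek by 1.13 (SE 0.24, adjusted p 0.0414) and the TGF-beta coreceptor gene Eng by 0.92 (SE 0.16, adjusted p 0.0234). The count was 1 (Ecscr) without induced replicate 2, uninduced replicate 2 or uninduced replicate 3, 2 (Sox17 and Ecscr) without induced replicate 1 or 3, and 1 with spike-in scaling. Cdh5, the main endothelial cadherin, differed by only -0.28 (SE 0.48, adjusted p 0.751), and Erg by -1.79 and Fli1 by -0.16 on the same scale.

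Of 8 mast cell genes listed with GATA2 and GATA1, 4 rose and 0 fell, with or without the block. They were Mcpt1, at least 26.7-fold higher in induced cells, Mcpt2, at least 10.6-fold higher, Mcpt4, which averaged 0.13 ± 0.87 in induced and -5.21 ± 0.58 in uninduced cells (adjusted p 0.00308), and the granule proteoglycan gene Srgn, which rose by 1.41 (SE 0.25). Mcpt1 and Mcpt2 were well above background on none of the uninduced arrays and Mcpt4 on 1 of 3. The 3 proteases were thus kept only through the induced arrays, a filter that favours a rise, so their count is not a separate result. They are also neighbours of similar sequence. The receptor gene Kit, part of the same list, differed by 0.57 (adjusted p 0.678). When only probes above background on each of the 6 arrays were used, 1 rose. Of 6 T cell genes listed with GATA3, 1 rose without the block, Tcf7, by 1.39 (SE 0.27, adjusted p 0.0332), and 2 rose with it, while Zbtb7b differed by -0.43 and Cd3e by -0.33. Tcf7 did not pass when any 1 array other than induced replicate 1 was left out. The other T cell gene that rose with the block, Il4, was kept only through the induced arrays.

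**Figure D4:**
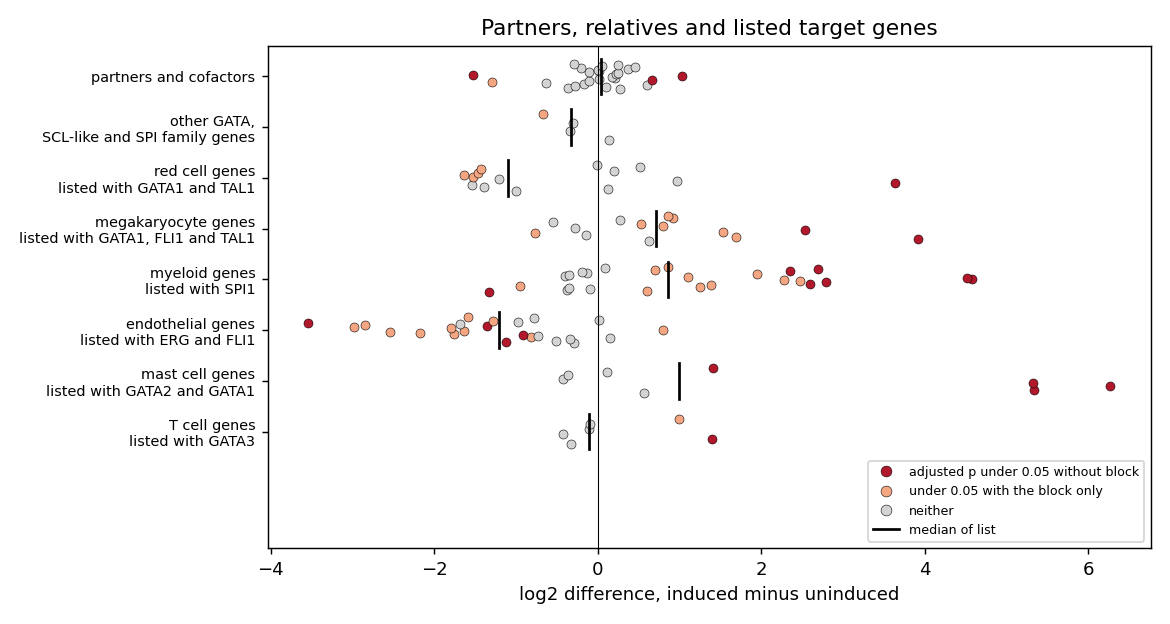
Log2 difference, induced minus uninduced, of each gene tested in the 8 lists. Points are genes, red where adjusted p was under 0.05 without the block and light orange where only with it, and bars are list medians. The myeloid list has a median of 0.86 as fitted and the endothelial list a median of -1.21.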

How the data were processed

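RNA of 8 samples (25 ng each, Cy3) was measured on Agilent 1-colour arrays. Per the file headers, Feature Extraction 10.7.3.1 made the processed and median signal intensity on a linear scale, and flags of 0 and 1 (10.7.1.1 and limma per the submitters' processing notes). No source used here states the normalization of the log2 values in the authors' deposited table. Outlier and control spots were dropped, the 75th percentile of its array was subtracted from each log2 processed signal, and spots of 1 probe were averaged. A probe was kept if well above background on all 3 arrays of a group (32857 probes), and a gene was read by the brightest of its kept probes (26582 probes had 1 symbol, 29099 none, by RefSeq accession in the GRCm38.p6 gene table). limma 3.58.1 (R 4.3.3, lmFit and eBayes, two-sided) compared 3 induced with 3 uninduced arrays, with Benjamini-Hochberg adjustment over all genes. SE and adjusted p in the text are from this fit unless the block is named. The pairing rests on shared numbers in the titles and on the correlation of deviations. How independent the replicates are rests on the labels, and the number of arrays limits the precision. The normexp alternative used the median spot signal in place of the mean signal that was planned. In values simulated for this comparison over 14504 genes, each fit called 100% of 200 genes changed by 2 on the log2 scale. That share does not carry over to the measured arrays. Without the block, Robo4 differed by -2.99 (adjusted p 0.199 in limma) and Emcn by -2.84 (adjusted p 0.243), and neither passed. Both are in the endothelial list and are named after their values were seen. Genes and lists were chosen with earlier results of these data known. Named were the 10 genes, and in each list up to 4 genes past the threshold by size, with up to 2 of the brightest others where fewer than 2 passed; 1 gene so named is not reported here. A further rule, to name genes with the most similar profile for each gene past the threshold, named none, as 0 of the 10 passed without the block.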

Additional observations from a re-analysis of the deposited data

How the results depend on the processing

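The number of genes of the network past the threshold depended on the fit. Without the block, 1 rose with median scaling, 1 with spike-in scaling and 1 with quantile normalization (Spi1 each time), and 2 with the technical repeats as a 4th array (Spi1 and Gata2), treated as if independent; 0 rose or fell with any 1 array left out. In the spike-in fit without the block the SE was 0.72 for each of the 10 genes. The p of Spi1 in that fit thus does not reflect its own spread. With the replicate block 2 rose and 3 fell. With the block and spike-in scaling 5 rose, with median scaling 2 rose and 3 fell, with quantile normalization 2 rose and 2 fell, with normexp 1 rose and 4 fell, without a filter on dim probes 0 rose and 1 fell, and with the mean of the kept probes 2 rose and 3 fell. With the block, 0 to 1 rose and 1 to 2 fell when 1 replicate number was left out. The block settings other than the plain block were chosen after seeing the data. Erg passed in all 10 fits with the block except that with spike-in scaling. Of all genes, 915 passed in the reported fit, 534 without a filter, 2346 with the block, 1600 with the technical repeats, and 358 to 822 with 1 array left out. With the block they numbered 12593 with spike-in scaling, 2944 with median scaling, 2219 with quantile normalization, 4385 with normexp, 2411 with the mean of probes and 1013 to 1968 without 1 replicate number. The cause was not tested.

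With spike-in scaling the difference turned to 0.20 for Lyl1, 0.36 for Lmo2, 0.80 for Ldb1, 0.62 for Gata1, 0.68 for Gata3 and 0.97 for Fli1, by construction the same with the block. Without induced replicate 1 it turned to 0.35 for Gata1 and 0.11 for Fli1, and without uninduced replicate 2 to 0.42 for Gata1; with 1 array left out the range was -1.69 to 0.42 for Gata1, -0.36 to 0.11 for Fli1, -2.43 to -0.97 for Erg, -1.48 to -0.35 for Lyl1, -1.44 to -0.32 for Lmo2, 0.63 to 0.98 for Gata2 and, as fitted, 2.01 to 3.21 for Spi1. The authors' table, read by its column names, gave 0 genes past the threshold, differences of 1.01 for Lyl1, 1.03 for Lmo2, 0.40 for Ldb1, 2.22 for Gata1, 0.58 for Fli1 and 1.33 for Erg, and pair changes of -1.68 for Spi1 minus Gata1, 1.94 for Gata1 minus Gata2, 0.75 for Erg minus Fli1 and -0.94 for Tal1 minus Lyl1; 4 of its columns matched an array of the other group. Spi1 minus Gata1 was 0.68 with normexp. Dim signal limits Spi1, the second Erg probe and, in replicate 1, Gata1.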
